A study of Homo sapiens with 2 samples.

Results

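C/D-box small nucleolar RNAs (snoRNAs) were described on 2 microarrays of RNA from an immunoprecipitation of Argonaute2 (Ago2), the protein that carries microRNAs. The members are the genes whose symbol in the platform annotation starts with SNORD and which have a probe set of their own. There were 115 of them among 18417 measured genes. The RNA came from A549, an established human lung adenocarcinoma cell line. The miR-130b sample was 1 array of cells overexpressing that microRNA, and the empty-vector sample was 1 array of cells transfected with the vector alone. Neither sample had a replicate, so differences describe these 2 arrays, without an error or a test. All values are log2 expression values, and each difference is the miR-130b value minus the empty-vector value. The precipitated RNA alone was analysed, so a difference combines the amount of an RNA in the cells with its share in the precipitate, and fewer cells that express an RNA cannot be told apart from less RNA per cell. The extraction label speaks of tissue and of a microRNA kit, so the route by which RNA of snoRNA length was purified from the precipitate is not settled by them.

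C/D-box snoRNAs are short nuclear RNAs named after their conserved C and D sequence motifs. Most of them pair with ribosomal RNA or with the spliceosomal U6 RNA and guide the methyltransferase fibrillarin to a 2'-O-methylation site. In human cells nearly all are cut out of introns of a host gene after splicing, and many hosts encode ribosomal proteins or translation factors, while others, the small nucleolar RNA host genes, make spliced transcripts with little or no protein product. A probe set for a snoRNA also matches the unspliced intron of its host. Some snoRNAs are known to yield short fragments that associate with Argonaute proteins. The probe sets do not separate a full-length snoRNA from its precursor or from a fragment.

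The overexpressed microRNA is shown first because its gene is the check of the labels. Its mature strands are printed from RefSeq (GRCh38.p14), where they lie on the plus strand at chr22:21653354-21653375 for the 3p strand and at chr22:21653316-21653336 for the 5p strand. Capitals mark the seed, bases 2 to 8.

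hsa-miR-130b-3p: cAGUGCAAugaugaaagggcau

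hsa-miR-130b-5p: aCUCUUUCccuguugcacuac

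MIR130B stood at 12.64 on the miR-130b array and at 6.66 on the empty-vector array, as the labels state. Both arrays had a median of 7.77 over 33297 probe sets. Of 5 epithelial markers 4 were above the median level of all genes, with KRT8 at 13.48 on the miR-130b array and 13.38 on the empty-vector array, whereas EPCAM, an epithelial adhesion gene, lay below that level on both arrays. CDH1, which encodes E-cadherin, was at 11.49 with miR-130b and 12.61 with the empty vector, 2.17-fold lower. Of the markers of other cell types, COL1A1 (fibroblasts), CD14 (leukocytes) and SNAP25 (neurons) were above that level, and the other 7 were below it, among them DCN, PTPRC and PECAM1. CD14 was at 9.53 with miR-130b and 8.89 with the empty vector (0.63), COL1A1 at 9.05 and 8.74, and SNAP25 at 10.11 and 9.81. Their part in any snoRNA value was not tested.

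The C/D-box RNAs were lower on the miR-130b array as a group. Of the 115 members, 100 were lower, 13 were higher and 2 had equal values on both arrays. Among all measured genes 40.6% were lower. The median difference of the members was -0.47, with a middle range from -0.78 to -0.20 (25th to 75th percentile), beside a median of 0.053 over all genes. At least 2-fold lower were 11 members (9.57%), beside 1.37% of all genes, and 0 members were at least 2-fold higher, beside 1.06% of all genes. At a threshold of 1.5-fold, 50 members were lower (43.5%), beside 4.65% of all genes. At a ratio of 5 to 4, the lowest threshold used, 74 were lower (64.3%), beside 11.8% of all genes, and 1 was higher. The difference between distinct probe sets of 1 gene on these arrays had a pooled SD of 0.16. It was taken over 356 genes at or above the median level of all genes, and 84 of the members lie below that level. The differences of 74 members were below 0 by more than 2 such SDs. They are the same 74 as at the ratio of 5 to 4, nearly the same cut, which 11.8% of all genes passed. The share of all genes past the SD cut itself was not computed. That SD leaves out all variation between cultures and between precipitations.

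**Figure D1:**
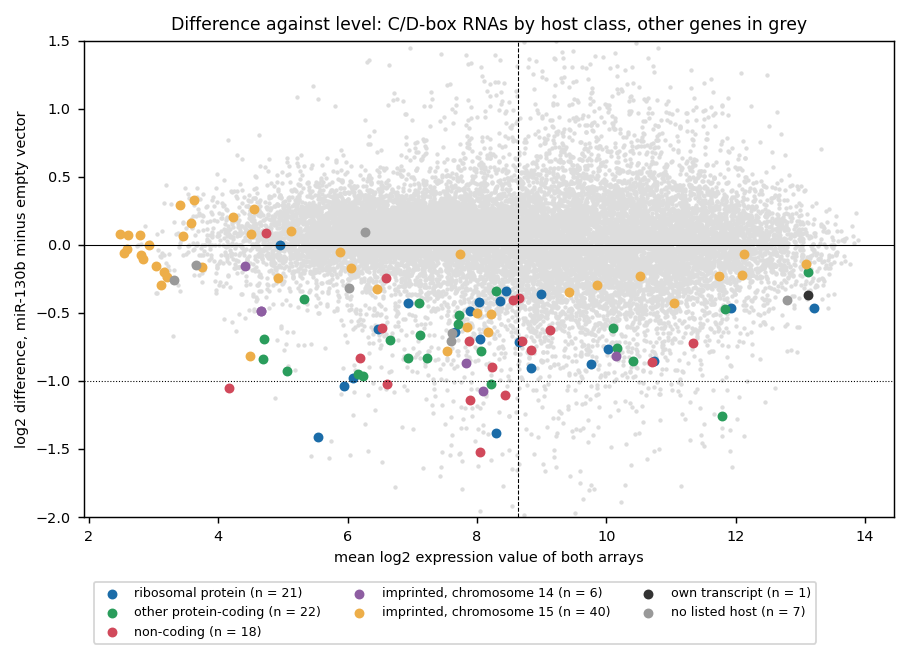
Difference (vertical axis, log2, miR-130b minus empty vector) against the mean log2 value of both arrays (horizontal axis) for the 115 C/D-box RNAs, coloured by the kind of host gene, with all other genes in grey. The dashed line is the median level of all genes, the dotted line a 2-fold decrease, and 77 genes lie outside the plotted range. Most coloured points lie below 0, and the SNORD115 genes at the low end spread around it.

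Members whose mean level reached 8.64 on the log2 scale, the median of the measured genes, were examined apart. The level was the mean of both arrays. There were 31 such members, and all 31 were lower on the miR-130b array, where 48.4% of the 9209 genes at or above that level were lower. Their median difference was -0.47, beside 0.010 for those genes. At least 1.5-fold lower were 15 of the 31 (48.4%), beside 5.87% of the genes at that level, and 24 (77.4%) were lower by a ratio of 5 to 4, beside 15.6%. At least 2-fold higher were 0 of the 31, beside 1.32%. The members just inside the threshold were SNORD30 (mean 8.66) and SNORD4A (8.66), and those just outside were SNORD81 (8.56) and SNORD55 (8.46). The 84 members below the threshold had a median difference of -0.46, and 69 of them were lower. The brightness of a probe set depends on its sequence as well as on the RNA, so single genes are not ranked by level, and any threshold on level is only a rough guide.

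**Figure D2:**
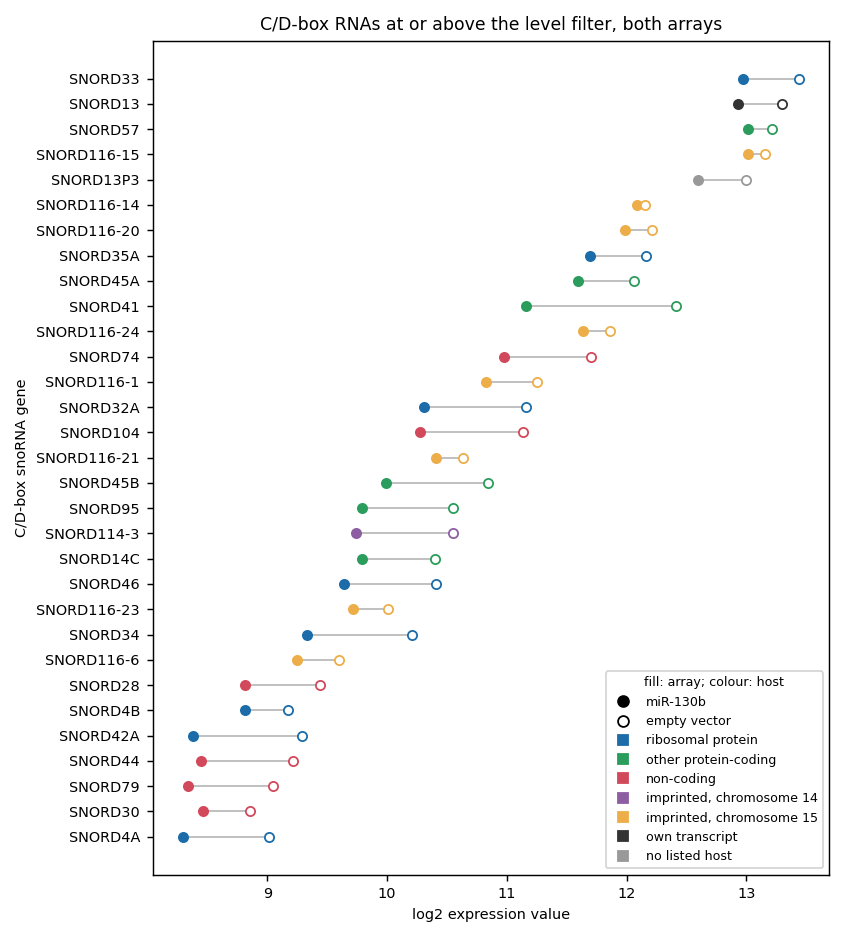
Values of the 31 C/D-box RNAs at or above the level threshold on the miR-130b array (filled) and the empty-vector array (open), on the log2 scale, coloured by the kind of host. Each filled point lies to the left of its open point, and the gap is widest for SNORD41 (-1.26) and narrowest for SNORD116-14 (-0.071).

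Members hosted by ribosomal protein genes numbered 21, of which 20 were lower and 1, SNORD102 in RPL21, had the same low value of 4.96 on both arrays. Their median difference was -0.64. SNORD102 was slightly higher on the miR-130b array after quantile normalization and lower under the other rescalings of the arrays. The 4 snoRNAs of RPL13A, which encodes a large-subunit protein, were all above the level threshold, and those named U32a, U33 and U35a in mammals have been linked to the response to lipid stress. SNORD33 stood at 12.97 on the miR-130b array and at 13.44 on the empty-vector array, a difference of -0.47. SNORD35A was at 11.69 with miR-130b and 12.16 with the empty vector (-0.46), SNORD32A at 10.31 and 11.16 (-0.85) and SNORD34 at 9.33 and 10.21 (-0.88). Products of the same host transcript thus differed by between -0.88 and -0.46.

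The 3 measured snoRNAs of RPL23A, another large-subunit gene, had values of 8.38 with miR-130b and 9.28 with the empty vector for SNORD42A (-0.90), 8.30 and 9.01 for SNORD4A (-0.71) and 8.81 and 9.17 for SNORD4B (-0.36). RPS3 hosts 2 copies of the U15 RNA with unequal differences. SNORD15B was at 7.61 with miR-130b and 8.99 with the empty vector, 2.61-fold lower, whereas SNORD15A was at 7.65 and 8.14, a difference of -0.49. SNORD54, in RPS20, had the lowest difference of this group, at 4.84 on the miR-130b array and 6.26 on the empty-vector array (-1.41), although both values are low for these arrays, where olfactory receptor genes, which lung cells are not known to use, had medians of 5.86 and 5.77. SNORD58A in RPL17 differed by -0.98, SNORD36B in RPL7A by -0.70 and SNORD21 in RPL5 by -0.61. The 3 snoRNAs of RPL3, SNORD83A, SNORD43 and SNORD83B, lay between -0.64 and -0.41.

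All 22 members hosted by other protein-coding genes were lower on the miR-130b array, with a median of -0.73. SNORD41, in an intron of the nuclear import receptor gene TNPO2, was at 11.16 with miR-130b and 12.42 with the empty vector. That 2.39-fold decrease was the only one of at least 2-fold among the 31 members above the level threshold, 3.23% of them, beside 1.6% of the genes above it. The 3 snoRNAs of RABGGTB, a subunit of the enzyme that attaches lipid groups to RAB proteins, had unequal differences. SNORD45A was at 11.60 with miR-130b and 12.06 with the empty vector (-0.47), SNORD45B at 9.99 and 10.85 (-0.85) and SNORD45C at 6.31 and 7.01 (-0.70). SNORD57, in the gene of the snoRNP core protein NOP56, was among the least different members of this group, at 13.01 on the miR-130b array and 13.21 on the empty-vector array (-0.20).

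SNORD14C, a copy of the U14 RNA that yeast needs for making 18S ribosomal RNA, lies in the chaperone gene HSPA8 and was at 9.79 with miR-130b and 10.40 with the empty vector (-0.61). SNORD14E, in the same gene, differed by -0.42. SNORD95 and SNORD96A, in the ribosome-associated scaffold gene RACK1, differed by -0.76 (9.79 with miR-130b, 10.55 with the empty vector) and by -0.58. NCL encodes the nucleolar protein nucleolin and hosts SNORD82, at 7.71 with miR-130b and 8.74 with the empty vector (2.03-fold lower), and SNORD20 (-0.69). The elongation factor genes EEF2 and EEF1B2 host SNORD37 (-0.97) and SNORD51 (-0.66), and ATP5F1B, a subunit of mitochondrial ATP synthase, hosts SNORD59B (-0.95) and SNORD59A (-0.84). SNORD61 in the splicing regulator gene RBMX differed by -0.92. SNORD8 and SNORD94, which guide methylation of U6 RNA and lie in CHD8 and PTCD3, differed by -0.52 and -0.34. The other members of this group were SNORD117 in DDX39B (-0.83), SNORD105 in PPAN (-0.83), SNORD53 in WDR43 (-0.78) and SNORD63 in HSPA9 (-0.40). SNORD20, SNORD59A, SNORD61 and SNORD63 lay below the olfactory receptor medians on both arrays, where no fold can be read.

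Members from non-coding host genes had a median difference of -0.75, with 17 of 18 lower. SNORD12C, from ZFAS1, had the largest decrease of all 115 members. It stood at 7.28 on the miR-130b array and at 8.80 on the empty-vector array, 2.87-fold lower. GAS5, a transcript that accumulates in growth-arrested cells, hosts 7 of the members. SNORD74 was at 10.98 with miR-130b and 11.70 with the empty vector (-0.72), SNORD44, often used as a normaliser in microRNA assays, at 8.45 and 9.22 (-0.77), and SNORD79 at 8.34 and 9.05 (-0.71). At least 2-fold lower were SNORD75 (7.31 with miR-130b, 8.46 with the empty vector), SNORD78 (7.88 and 8.98) and SNORD77 (3.64 and 4.69). The SNORD77 values lie below the olfactory receptor medians, where no fold can be read. SNORD81 was the least different of the 7, at -0.40. All 7 were lower, and their differences ran from -1.14 to -0.40.

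SNORD49A, from SNHG29, was 2.03-fold lower, at 6.09 on the miR-130b array and 7.11 on the empty-vector array. SNORD104, from SNHG25, was at 10.28 with miR-130b and 11.13 with the empty vector (-0.86), and SNORD60, from SNHG19, differed by -0.90. From SNHG1, SNORD28 was at 8.81 with miR-130b and 9.44 with the empty vector (-0.62), and SNORD30 at 8.46 and 8.85 (-0.39). SNORD50A and SNORD50B, from SNHG5, differed by -0.70 and -0.61, and SNORD52, from SNHG32, by -0.24. Of the snoRNAs of SNHG16, SNORD1A was lower (-0.83) and SNORD1B was the only member of the group that was higher, at 4.79 with miR-130b and 4.70 with the empty vector.

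Host transcripts with a probe set of their own differed less between the arrays than the snoRNAs cut from them. Of 37 listed hosts, 20 had a probe set of their own, and these host 30 of the members. All 30 snoRNAs were lower on the miR-130b array, and for all 30 the difference was more negative than that of the host. The median snoRNA difference was -0.70, the median host difference was -0.13, and the median of snoRNA minus host was -0.62 (range -1.35 to -0.17). The 20 hosts had median values of 11.82 with miR-130b and 11.93 with the empty vector, beside 7.25 and 7.93 for all 115 members. Hosts and snoRNAs were not matched on level, and the part of level in the gap was not tested. Among the 30, SNORD20, SNORD59A and SNORD63 lay below the olfactory receptor medians on both arrays. Products of 1 host are not independent of each other. With 1 value per host, the 20 values of snoRNA minus host also had a median of -0.62. With hosts taken as any measured gene that contains the snoRNA in the RefSeq table, read without strand, 34 of 35 snoRNAs were more negative than that gene. The exception was SNORD96B (0.093), which has no listed host, beside AMMECR1 (0.058).

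The 7 measured ribosomal protein hosts were all lower, with differences from -0.46 (RPL17) to -0.12 (RPL23A) and a median of -0.21. The RPL17 value is from 1 probe set, at 7.75 with miR-130b and 8.22 with the empty vector. Brighter probe sets shared by RPL17 and a readthrough differed by -0.34 and -0.33. RPS20 was at 11.60 on the miR-130b array and 11.93 on the empty-vector array, and RPS3 at 12.91 and 13.14. Their 12 snoRNAs had a median of -0.67. The 59 other ribosomal protein genes by symbol, which host no measured member, had a median of -0.17, with 53 lower.

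The 11 other protein-coding hosts had a median of 0.032, with 5 lower and 6 higher, or 6 lower and 5 higher once the median of all genes was subtracted. TNPO2 was at 10.84 with miR-130b and 10.75 with the empty vector, a difference of 0.096, beside -1.26 for its SNORD41. NCL differed by 0.075, HSPA8 by 0.23, CHD8 by 0.24 and PTCD3 by 0.27, and each of their snoRNAs was lower by at least 0.34. EEF2 had the most negative difference of these hosts, at 13.07 with miR-130b and 13.38 with the empty vector (-0.31). The 16 snoRNAs of these hosts had a median of -0.69.

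The 2 non-coding hosts with a probe set of their own were both lower on the miR-130b array. ZFAS1 was at 8.85 on the miR-130b array and 10.20 on the empty-vector array, 2.55-fold lower, and its difference of -1.35 lay 0.17 above that of SNORD12C. SNHG29 was at 9.84 with miR-130b and 10.56 with the empty vector (-0.71), beside -1.02 for SNORD49A. For GAS5 and SNHG1 the probe sets carry the symbols of both host and snoRNA, so no host value is separable.

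**Figure D3:**
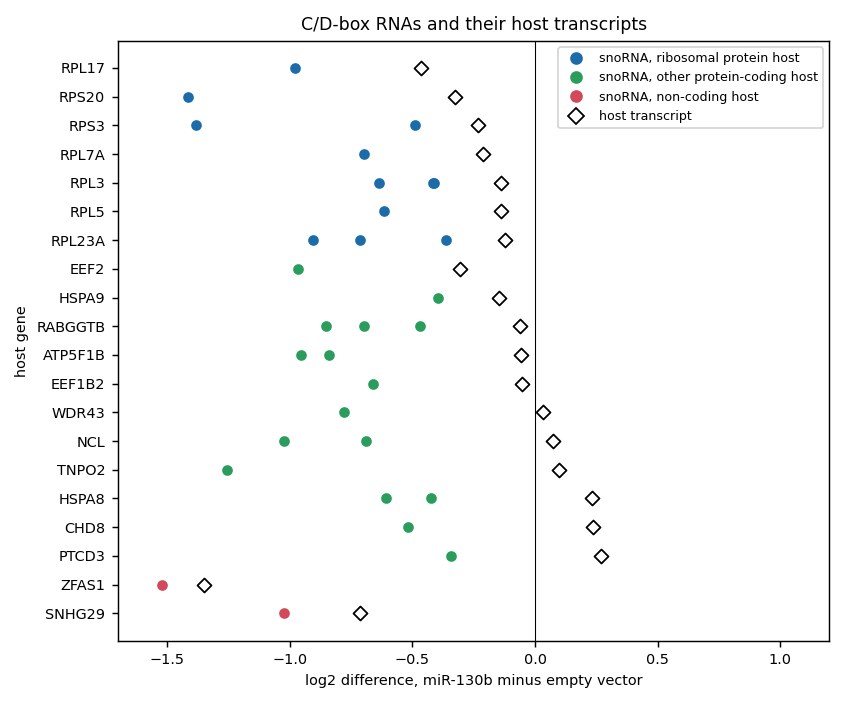
Difference (log2, miR-130b minus empty vector) of 30 C/D-box RNAs (filled circles, coloured by kind of host) and of their 20 host transcripts (open diamonds), 1 line per host. Every circle lies to the left of its host's diamond, and the gap is 1.35 for SNORD41 in TNPO2 and 0.17 for SNORD12C in ZFAS1.

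Across the 20 hosts the median snoRNA difference and the host difference had a Pearson's r of 0.66 and a Spearman's rho of 0.56. Without the 2 non-coding hosts, r was 0.45 and rho was 0.43 (18 hosts). All points come from the same 2 arrays and each snoRNA lies in an intron of its host, so these values are a description and have no test.

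The sequence around the start of several hosts is shown because many snoRNA hosts are known as 5' TOP genes, whose transcripts begin with a C and a run of pyrimidines and are regulated together with the ribosomal protein mRNAs. Each line gives 15 bases before and 15 bases from the annotated start, 5' to 3' on the gene's strand, from RefSeq (GRCh38.p14). Capitals mark a run of at least 5 bases that begins with C, holds C and T alone and starts within 5 bases of the annotated start, searched on the gene's strand only. The windows are chr20:49278627-49278656 (plus strand) for ZFAS1, chr17:16438972-16439001 (plus) for SNHG29, chr11:75399503-75399532 (plus) for RPS3, chr9:133348203-133348232 (plus) for RPL7A, chr19:3985449-3985478 (minus) for EEF2, chr1:75786241-75786270 (plus) for RABGGTB, chr2:231464470-231464499 (minus) for NCL and chr2:86106220-86106249 (plus) for PTCD3.

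ZFAS1: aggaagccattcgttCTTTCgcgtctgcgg

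SNHG29: cccctccttttgtgaggattgggatattcc

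RPS3: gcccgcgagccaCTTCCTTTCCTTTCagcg

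RPL7A: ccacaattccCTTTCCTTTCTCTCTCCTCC

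EEF2: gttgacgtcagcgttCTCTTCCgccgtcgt

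RABGGTB: ctgaccctgctCTCTCCTTTCCCTgttaga

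NCL: tcagtctttcgcctcagtctcgagctctcg

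PTCD3: cccaacatgctctgcagagaaatcaaagat

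Such a run was found in 14 of 27 hosts with 1 entry in the table, 5 of 8 non-coding hosts, 5 of 6 ribosomal protein hosts and 4 of 12 other protein-coding hosts. Over all 35116 gene starts in the table the share was 21.1%, and over the 76 starts of ribosomal protein symbols it was 73.7%. The share in ribosomal protein hosts is thus to be read beside that of ribosomal protein genes in general. Hosts on chromosome 8, among them RPS20, were left out of the search. The 6 measured hosts with a run had a median difference of -0.22, from -1.35 (ZFAS1) to -0.063 (RABGGTB), and the median of their snoRNA values was -0.82. The 8 measured hosts without it had a median of 0.053, from -0.71 (SNHG29) to 0.27 (PTCD3), and the median of their snoRNA values was -0.65. The host values of the 2 sets overlapped. An annotated start need not be the start used in these cells, so a window without a run says only that the letters are not there.

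The imprinted clusters had unlike values. On chromosome 15, SNHG14 hosts long tandem series of SNORD115 and SNORD116 genes, which are transcribed from the paternal copy and whose loss is linked to Prader-Willi syndrome. SNORD115 is known as a brain RNA with complementarity to the serotonin 2C receptor transcript. Its 20 measured genes were at the low end of both arrays, from 2.51 to 5.18 on the miR-130b array and from 2.45 to 5.07 on the empty-vector array, below the median of olfactory receptor genes in every case. Of them 9 were lower, 10 were higher and 1 was equal, with a median difference of 0.034, which became -0.018 once the median of all genes was subtracted. The 5 largest increases among all C/D-box RNAs were in this cluster, led by SNORD115-41 at 3.79 with miR-130b and 3.46 with the empty vector (0.33). The next were SNORD115-31 (0.29), SNORD115-44 (0.26), SNORD115-24 (0.20) and SNORD115-25 (0.16), all at values where no fold can be read.

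The 20 measured SNORD116 genes covered nearly the whole range of the arrays, from 4.09 to 13.02 with miR-130b and from 4.48 to 13.16 with the empty vector. Several of these genes, such as SNORD116-14, SNORD116-15 and SNORD116-20, are also named on probe sets shared by several copies. How far the signals of single copies are separable was not tested. Of the 20 genes 19 were lower, with a median difference of -0.27. The 8 above the level threshold had a median of -0.23 and lay between -0.43 and -0.071. SNORD116-15 stood at 13.02 on the miR-130b array and 13.16 on the empty-vector array (-0.14), SNORD116-14 at 12.09 and 12.16 (-0.071) and SNORD116-20 at 11.99 and 12.21 (-0.22). SNORD116-24 (-0.23), SNORD116-21 (-0.23), SNORD116-23 (-0.29), SNORD116-6 (-0.35) and SNORD116-1 (-0.43) had the other values above the threshold. The most negative SNORD116 gene was SNORD116-16, at 4.09 with miR-130b and 4.90 with the empty vector (-0.82), and the 1 higher gene was SNORD116-18, at 4.55 and 4.48. Both lie below the olfactory receptor medians, where no fold can be read.

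Among members with a mean value from 10 to 12, the 3 SNORD116 genes had a median of -0.23 and the 10 members outside the imprinted clusters a median of -0.76. Above 12, the 3 SNORD116 genes had a median of -0.14 and the 4 members outside the clusters a median of -0.39. Over all genes the medians at these levels were 0.0096 and 0.0056. In the band from 8 to 10 the values were -0.50 for 5 SNORD116 genes and -0.71 for 20 members outside the clusters.

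**Figure D4:**
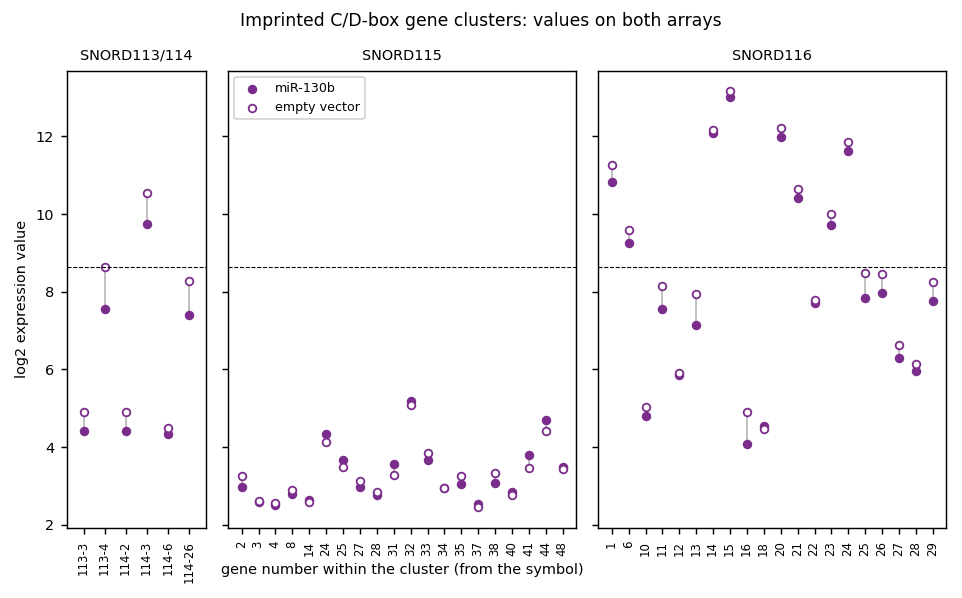
Log2 values of the measured SNORD113, SNORD114, SNORD115 and SNORD116 genes on the miR-130b array (filled) and the empty-vector array (open), by gene number. The dashed line is the median level of all genes. The SNORD115 values stay between 2.45 and 5.18 on both arrays, and 19 of 20 SNORD116 genes have the filled point below the open one.

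On chromosome 14, SNORD113 and SNORD114 genes lie in the maternally expressed transcript MEG8. All 6 measured members were lower, with a median of -0.65. SNORD114-3, the 1 above the level threshold, was at 9.74 on the miR-130b array and 10.55 on the empty-vector array (-0.81). SNORD113-4 was 2.10-fold lower, at 7.55 with miR-130b and 8.63 with the empty vector, and SNORD113-3 differed by -0.49. SNORD114-26 differed by -0.87, SNORD114-2 by -0.49 and SNORD114-6 by -0.16. The values of SNORD113-3, SNORD114-2 and SNORD114-6 lay between 4.34 and 4.91 on both arrays. That is below the olfactory receptor medians, where no fold can be read. MEG3, the neighbouring maternally expressed gene, was at 7.89 with miR-130b and 8.45 with the empty vector (-0.56).

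Of the members without a listed host gene, SNORD13 is made from its own promoter and guides acetylation, not methylation, of 18S ribosomal RNA. It was at 12.93 on the miR-130b array and 13.30 on the empty-vector array (-0.37). Its pseudogene SNORD13P3 had nearly the same pattern, at 12.60 and 13.00 (-0.40). How far the signals of SNORD13 and its pseudogenes are separable was not tested. The other members of this kind were SNORD32B (-0.71), SNORD13P2 (-0.65), SNORD7 (-0.32), SNORD13P1 (-0.26), SNORD56B (-0.15) and SNORD96B (0.093). SNORD13P1 and SNORD56B lay below the olfactory receptor medians on both arrays, where no fold can be read.

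The H/ACA-box snoRNAs, the class that guides pseudouridylation, were nearest to the C/D-box RNAs. Their 61 genes had a median difference of -0.44, with 56 lower (91.8%) and 4 at least 2-fold lower (6.56%). The 20 at or above the level threshold were all lower, with a median of -0.51, beside -0.47 for the 31 C/D-box members there. At least 1.5-fold lower were 9 of these 20 (45%), beside 48.4% of the 31. The 16 Cajal-body RNAs had a median of -0.26, with 15 lower (93.8%), beside 87.0% of the C/D-box members. The 15 genes with RNU symbols had a median of -0.22, with 10 lower (66.7%). The 173 microRNA genes had a median of 0.076, MIR130B among them, and 63 of them (36.4%) were lower. Differences between these medians were not tested, since each class was measured on the same pair of arrays.

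**Figure D5:**
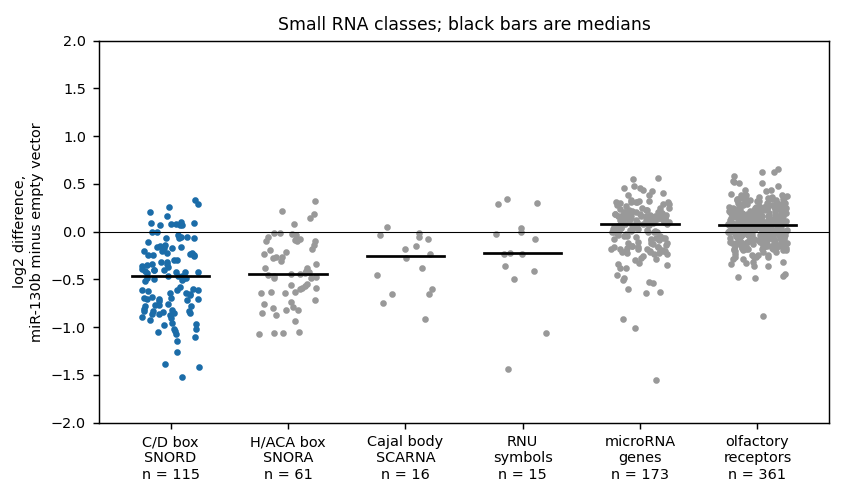
Differences (log2, miR-130b minus empty vector) of C/D-box RNAs and of other small RNA classes and olfactory receptor genes, 1 point per gene, with medians as black bars. The C/D-box and H/ACA-box medians are -0.47 and -0.44, those of microRNA genes and olfactory receptors are 0.076 and 0.072, and MIR130B lies above the plotted range.

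Messenger RNAs of the proteins that assemble C/D-box particles were spread around 0. Of 16 listed genes 14 were measured, all above the level threshold, with 7 lower, 7 higher and a median difference of -0.00039. The split was 9 lower and 5 higher once the median of all genes was subtracted. FBL, the methyltransferase fibrillarin, was at 12.59 on the miR-130b array and 12.65 on the empty-vector array (-0.057), and the core protein gene NOP58 at 10.70 and 10.66 (0.046). The most negative differences were those of the assembly factors ZNHIT3 (-0.44) and ZNHIT6 (-0.42), and the most positive were those of the assembly factor RPAP3 (0.31) and the export receptor XPO1 (0.25). None reached 2-fold.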

How the data were processed

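The deposited log2 values of 33297 probe sets on 2 arrays were used as given. Per the labels' protocols, biotin-labelled whole-transcript cDNA was hybridised to an Affymetrix array. How the scanner values were summarised and normalized is not given in the sources used here. Log2 as the unit was read from the range of the values (1.95 to 14.2). The arrays have nearly equal medians, so an overall difference in precipitated RNA would not be seen. A supplied platform annotation gave 1 symbol to 19460 probe sets and several to 1754, which were left out of gene values, and left 12083 without a name here. Entrez identifiers (19429 matched RefSeq) gave the current symbols. Probe sets of a gene were averaged. Each of the 115 members had 1 probe set.

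Hosts were listed by hand, and the supplied RefSeq table (GRCh38.p14) placed all 107 members with a listed host gene inside that gene. No coordinates of members are given. The members, gene lists and rules were chosen with earlier results of these data known. The text names every member above the level threshold (the median of all genes), every member at least 2-fold different, the 5 largest remaining differences each way, the extremes of each imprinted cluster, their hosts and the 2 largest differences each way among particle assembly genes. The members of 1 host gene are counted but that gene is not reported here. Other members, and the hosts whose start sequence is shown, were named after their values were seen. The number of arrays limits the precision. Alternatives were other level thresholds, centring, quantile and cyclic loess normalization, the brightest probe set, fold thresholds of 1.5 and of 5 to 4, probe sets with several symbols, and other host assignments. Python 3.11.15, pandas 2.3.3, numpy 2.4.6, matplotlib 3.10.9, R 4.3.3 and limma 3.58.1 were used.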

Additional observations from a re-analysis of the deposited data

How the results depend on the processing

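No paired analysis was possible because each group has 1 array. Across 11 planned settings and 4 chosen after seeing the data, 94 of 107 recomputed values stayed within 1.5 times the main count or within the SD between probe sets of 1 gene (0.16). Some of the 94 could not change, so that count is no measure of stability. Each member has 1 probe set, so taking the brightest left the member differences as they were. Subtracting the median of all genes cancels in snoRNA minus host and was not applied to the levels. Counts followed the thresholds. Without a level threshold the members above it become all 115, with 100 lower and 11 at least 2-fold lower, and at the 75th percentile of expression 17 members were left and 17 were lower. At 1.5-fold the counts of lower members were 50 of all, 15 of those above the level threshold and 18 relative to their hosts, and at a ratio of 5 to 4 they were 74, 24 and 23, while at 2-fold they were 11, 1 and 4. With 1 value per host, the snoRNA difference lay at least 2-fold below the host difference for 2 hosts. The median level of SNORD116 was 11.92 at the higher level threshold and 8.62 with shared probe sets added, beside 8.08. The median difference of SNORD115 was 0.034 and turned to -0.018 with the median of all genes subtracted, a shift of 0.053 by construction. Without SNORD115, 91 of 95 members were lower, with a median of -0.61. Among the 79 members above the median level of olfactory receptors, 78 were lower and 9 at least 2-fold lower, with a median of -0.62. With any containing gene in the RefSeq table taken as host, 34 of 35 members had a difference below that of the gene. That reading adds members without a listed host, such as SNORD96B, and is no separate check of the host result. With shared probe sets added for the listed hosts, 37 of 39 snoRNAs were below the host.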

Other observations

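Another 49 probe sets carry a SNORD symbol together with other symbols and entered no gene value. They hold 37 distinct pairs of values, of which 31 were lower on the miR-130b array and 1 was at least 2-fold lower, with a median difference of -0.33. The U3 RNA, the abundant snoRNA of early ribosomal RNA processing, is covered by probe sets shared among its SNORD3 copies, at 9.10 with miR-130b and 9.40 with the empty vector (-0.31). In GAS5, the probe sets shared with SNORD80, SNORD47 and SNORD76 differed by -1.22, -0.83 and -0.77. The 6 distinct shared SNORD116 pairs had a median of -0.27, and the 6 of SNORD115 had a median of -0.051.

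Some hosts are covered only by probe sets shared with a pseudogene, paralog, readthrough or other gene. These differed by -0.26 for RPL13A, -0.079 for DDX39B, 0.28 for PPAN and 0.21 for RBMX, and each snoRNA of these 4 hosts was lower than that. For 2 hosts the order was the other way. The RPL21 probe sets averaged -0.69, beside 0 for SNORD102, and the probe sets labelled SNHG32 and SVIL were at -1.17, beside -0.24 for SNORD52.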
